A study of Mus musculus with 12 samples.

Results

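The aminoacyl-tRNA synthetase genes were followed through *Prdm10* deletion in mouse embryonic stem cells (mESCs). The list held 36 genes, all found by their symbols among the 54146 genes of the RSEM (read quantification) files. It comprised 20 cytosolic enzymes and 16 mitochondrial enzymes, the latter with symbols that end in 2. Cells of C57BL/6 background with the genotype *Prdm10* F/F; *Rosa26*-CreERT2 carried floxed alleles of *Prdm10*, which encodes a zinc finger transcription factor, and a Cre recombinase that hydroxytamoxifen (OHT) switches on. They received 50 nM OHT, or the same volume of its solvent ethanol (EtOH), for 24 h and were harvested at Day 2 or Day 4. Both treatments shared this genotype, so the EtOH cells had intact but floxed alleles and also held the Cre fusion, and OHT in cells without floxed alleles is not analysed here. Each of the 4 groups (Day 2 EtOH, Day 2 OHT, Day 4 EtOH and Day 4 OHT) had 3 libraries, and the labels do not say whether these came from separate cultures, so that p-values measure the spread between libraries only.

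The 12 libraries held 35017667 to 41409992 expected counts, RSEM's estimates of the read pairs from each gene. The total count of the whole *Prdm10* gene was higher in the libraries labelled OHT (2008 to 2370 expected counts) than in those labelled EtOH (751 to 901). Gene totals do not separate the floxed exon from the rest of the transcript, so they give no check of its removal. The study's own assays of the deletion, by qRT-PCR and of PRDM10 protein, are not analysed here. Groups go by their labels, with lower and higher meaning lower and higher in OHT than in EtOH. Summed normalised counts of 6 mESC markers (*Pou5f1*, *Sox2*, *Nanog*, *Klf4*, *Esrrb* and *Zfp42*) were between 66684 and 80165 per library. They were 70391 to 72616 in EtOH and 66684 to 69454 in OHT at Day 2, and 70879 to 73872 in EtOH and 79621 to 80165 in OHT at Day 4, so that they were lower in OHT at Day 2 and higher at Day 4, without overlap. Those of 10 markers of other lineages and fibroblasts, none of which was at 0 in any library, were 329 to 347 in EtOH and 319 to 378 in OHT at Day 2, and 388 to 409 in EtOH and 347 to 395 in OHT at Day 4. Single mESC markers did not all follow their sum. At Day 2 the log2 fold change was -0.29 for *Sox2* and -0.13 for *Pou5f1*, but 0.20 for *Esrrb*. It lay between -0.08 (*Klf4*) and -0.0026 (*Nanog*) for the others. At Day 4 it was -0.04 for both *Pou5f1* and *Zfp42*, and from 0.16 (*Sox2*) to 0.40 (*Esrrb*) for the others. The part of either set of markers in the results was not tested.

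An aminoacyl-tRNA synthetase joins an amino acid to its tRNA, the step that sets which amino acid a codon is read as. Animal cells keep one set of these enzymes in the cytosol and another in mitochondria, both encoded in the nucleus, and *Gars* and *Kars* each encode the enzyme of both compartments. Several cytosolic enzymes sit in a multisynthetase complex held together by the scaffold proteins AIMP1, AIMP2 and EEF1E1. A subset of the cytosolic genes is known to be activated by ATF4, the transcription factor of the integrated stress response that raises amino acid synthesis and transport when amino acids are scarce, through a composite C/EBP-ATF element.

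The ATF4 composite element, searched as TGATGNAA on both strands, is shown first because the genes that changed most were on the list of known ATF4 targets. Such targets are activated through this element, so the list and the search are not independent of each other. The list was also chosen with earlier results of these data known. RefSeq promoters (GRCm38.p6, 250 bases before to 50 bases after each start) matched 27 of the 36 members by symbol and chromosome. The element was found in 5 of the 13 cytosolic members with a promoter and in none of the 14 mitochondrial ones, against 3.97% of all 32851 promoters and 4.51% of all 27025 gene symbols. All 5 were among the 8 matched members of the ATF4 list, and the other 5 matched cytosolic members held none. Of that list, *Sars*, *Eprs* and *Mars* were matched and held no element. *Nars* and *Cars*, which had the most negative Day 4 fold changes, and *Wars* and *Lars* had no matched promoter and were not searched. A match of letters does not show that a factor binds there, and its absence says only that these letters are not in this window. One window of 30 bases for each of the 5 genes, on the strand of the gene, follows in order of the Day 4 fold change, with the element in capitals. The gene name is followed by the window.
Yars (chr4:129189895-129189924, plus strand): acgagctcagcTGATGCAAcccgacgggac
Iars (chr13:49682126-49682155, plus strand): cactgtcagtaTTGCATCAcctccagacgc
Aars (chr8:111033840-111033869, plus strand): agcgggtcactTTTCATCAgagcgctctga
Gars (chr6:55037960-55037989, plus strand): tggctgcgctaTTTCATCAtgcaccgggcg
Tars (chr15:11399655-11399684, minus strand): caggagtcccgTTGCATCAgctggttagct
In *Yars*, *Iars* and *Aars* the element shown began 4, 8 and 10 bases into the RefSeq transcript, whereas in *Tars* and *Gars* it began at positions -15 and -30 before the start. For *Aars* and *Gars* the sequence after the RefSeq start was not found in full near the start of a GENCODE transcript. Their positions therefore hold for the RefSeq start only. The Yars element read TGATGCAA in the direction of the gene, and the other 4 shown lay on the opposite strand.

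Levels of different genes were compared per length, as the deposited TPM, which scales counts by gene length and library. Over the 6 EtOH libraries, mean TPM ranged from 34.7 (*Yars*) to 226 (*Kars*) among cytosolic members, with a median of 98.5, and from 1.62 (*Wars2*) to 38.3 (*Tars2*) among mitochondrial ones, with a median of 11.8. Of the 20 cytosolic members, 19 were above every mitochondrial member. *Tars2*, the mitochondrial threonyl-tRNA synthetase, had 34.4 to 42.0 TPM, a range that overlapped those of *Iars* (32.9 to 49.6), *Wars* (33.2 to 44.6) and *Yars* (27.9 to 41.4). At the top of the order, *Kars* (210.8 to 246.9 TPM), which serves both compartments, and *Eprs* (203.8 to 240.1), the fused glutamyl- and prolyl-tRNA synthetase, also overlapped. *Wars2*, *Lars2* (2.81) and *Mars2* (3.0) were the lowest in mean TPM. In normalised counts all 36 members passed the minimum mean of 100 on both days, so that none was left out of a test.

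**Figure D1:**
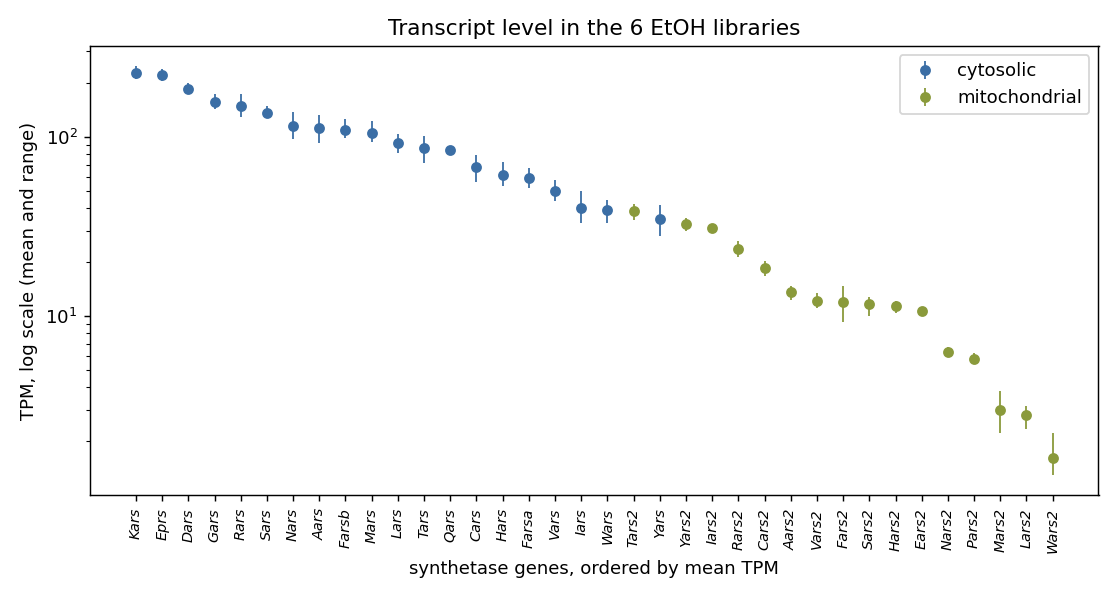
Mean TPM (log scale) of the 36 synthetase genes over the 6 EtOH libraries, ordered by level, with bars from the lowest to the highest library. Cytosolic genes (blue) lie above mitochondrial genes (green) except for *Tars2*, at 38.3 TPM, which lies above *Yars*, at 34.7 TPM.

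Most cytosolic enzymes were lower in the libraries labelled OHT on both days, and 14 of the 20 had a more negative fold change at Day 4 than at Day 2. A gene was called when its DESeq2 Wald test had a Benjamini-Hochberg adjusted p below 0.05 over all genes and its mean normalised count was above 100. At Day 2, 14 of the 20 cytosolic members were called lower and 0 higher, where 10.6% of all 11644 genes above the minimum mean were called lower and 9.17% higher. The other 6 were *Dars*, *Vars*, *Rars*, *Qars* and *Kars*, with log2 fold changes of -0.11 (*Dars*) to -0.02 (*Kars*), and *Iars*, with 0.04. At Day 4, 16 were called lower and 2 higher (*Vars* and *Qars*), against 21.7% lower and 23.5% higher among 11555 genes, and *Kars* and *Dars* were not called. The median log2 fold change of the 20 was -0.17 at Day 2 and -0.31 at Day 4, beside -0.03 and 0.01 over all genes above the minimum mean. The 14 genes called lower at Day 2 were all called lower at Day 4, where *Iars* and *Rars* joined them. The Day 2 count of 14 was 10 to 14 when a library was left out and 9 with a replicate block and the length trend removed, with *Farsa*, *Farsb*, *Hars* and *Wars* lost without EtOH replicate 1 or 2. No cytosolic member was higher at Day 2 at an unadjusted DESeq2 p below 0.05 or by edgeR (0 by each). In whole cultures, fewer cells that express a gene and less of its RNA per cell cannot be told apart.

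Few mitochondrial enzymes were called, and in both directions. At Day 2, 1 of 16 was called lower (*Mars2*) and 1 higher (*Lars2*), and at Day 4, 2 were called lower (*Lars2* and *Yars2*) and 3 higher (*Sars2*, *Vars2* and *Iars2*). These shares of 6.25% each way at Day 2 and of 12.5% and 18.8% at Day 4 were below those over all genes. Their median log2 fold change was -0.04 at Day 2 and -0.01 at Day 4. Without a threshold, all 3 libraries labelled OHT were lower than all 3 labelled EtOH for 17 of the 20 cytosolic members on each day, where 27.4% of all genes had this pattern at Day 2 and 29.8% at Day 4. They were higher for 0 cytosolic members at Day 2 and 2 at Day 4, against 18.7% and 33.1% of all genes. For mitochondrial members the same counts were 5 lower and 2 higher at Day 2, and 3 lower and 4 higher at Day 4.

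**Figure D2:**
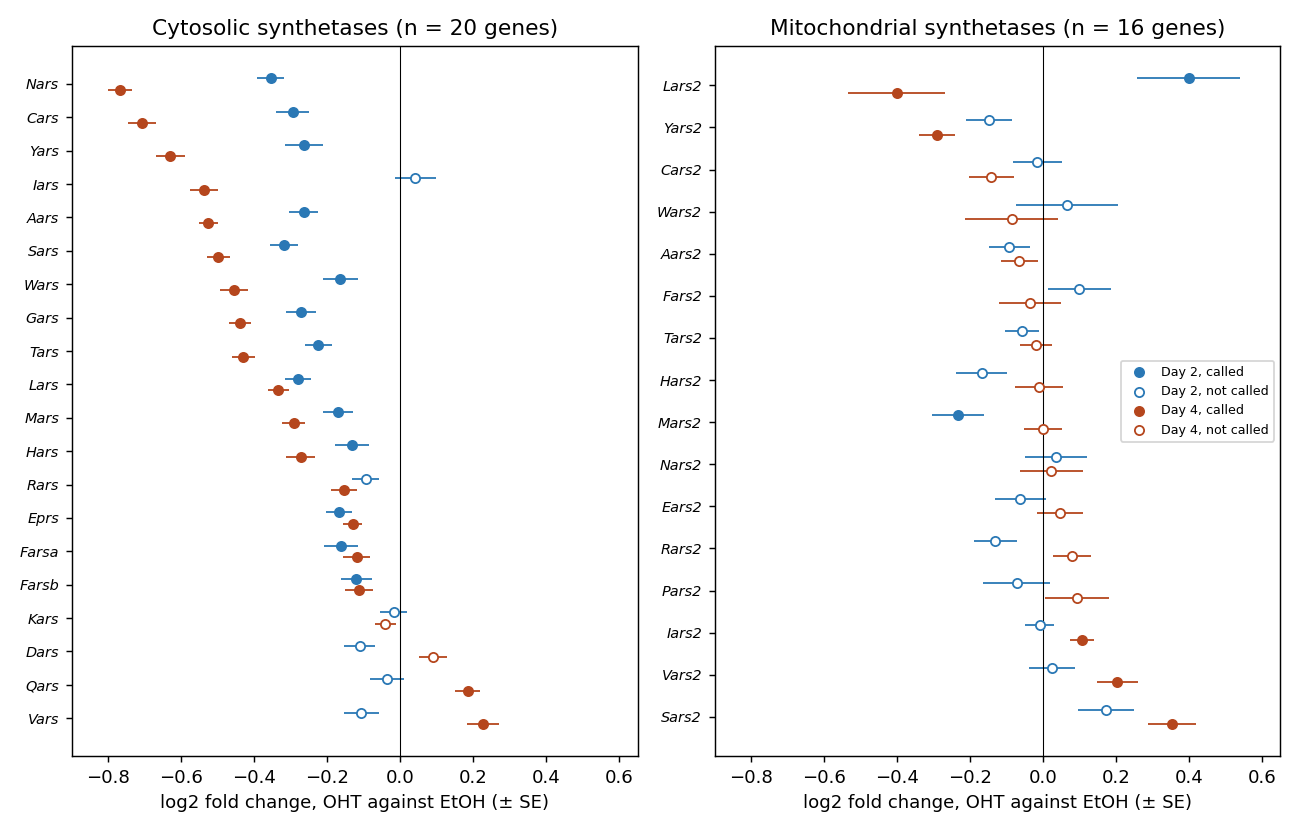
Log2 fold change ± SE of each synthetase gene, libraries labelled OHT against EtOH, at Day 2 (blue) and Day 4 (red), with filled points for called genes. Of the cytosolic genes (left) 16 are called lower at Day 4, from *Nars* at -0.77 to *Farsb* at -0.11, while the mitochondrial genes (right) lie on both sides of 0.

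The 8 members with the most negative called fold changes at Day 4 are described first, each with its mitochondrial counterpart. *Nars* (ENSMUSG00000024587.9; chr18:64499647-64516652, minus strand, GRCm38) encodes the cytosolic asparaginyl-tRNA synthetase and had the most negative Day 4 fold change of the members. Its normalised counts were 11851, 11513 and 11708 in EtOH and 9024, 9187 and 9208 in OHT at Day 2, and 14563, 13858 and 13819 in EtOH and 8311, 8327 and 8214 in OHT at Day 4. The groups were separate on both days, and the OHT libraries at Day 4 were the lowest of all 12. The log2 fold change was -0.35 ± 0.04 (SE), adjusted p = 2.06e-19, at Day 2 and -0.77 ± 0.03 (SE), adjusted p = 1.12e-123, at Day 4, where OHT was 58.7% of EtOH. Its mitochondrial counterpart *Nars2* had 604, 649 and 635 in EtOH and 689, 646 and 587 in OHT at Day 4, which overlapped, and a log2 fold change of 0.02 ± 0.09 (SE) with a 95% interval of -0.15 to 0.19.

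*Cars*, the cysteinyl-tRNA synthetase gene, had normalised counts of 4646, 4672 and 4771 in EtOH and 3710, 3864 and 3909 in OHT at Day 2, and 5877, 5625 and 5957 in EtOH and 3541, 3632 and 3536 in OHT at Day 4. Again no OHT library reached an EtOH library of its day. The log2 fold change went from -0.29 ± 0.05 (SE), adjusted p = 6.21e-09, to -0.71 ± 0.04 (SE), adjusted p = 1.56e-71. *Cars2* was not called at Day 4 (-0.14 ± 0.06 (SE), adjusted p = 0.0583), although its counts of 1158, 1100 and 1176 in OHT were all below the 1242, 1269 and 1276 in EtOH. It was called lower by edgeR (-0.15, adjusted p = 0.0103) and with all 12 libraries in 1 DESeq2 fit (-0.14, adjusted p = 0.037).

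*Yars*, for tyrosine, was measured at 3448, 3266 and 3370 in EtOH and 2721, 2736 and 2944 in OHT at Day 2, and at 4428, 4401 and 4457 in EtOH and 2891, 2866 and 2840 in OHT at Day 4. The OHT libraries of both days were close to each other, while the EtOH libraries were higher at Day 4 than at Day 2. Its log2 fold change was -0.26 ± 0.05 (SE) at Day 2, adjusted p = 1.23e-05, and -0.63 ± 0.04 (SE) at Day 4, adjusted p = 1.35e-55. The mitochondrial gene *Yars2* was lower at Day 4 too. It had 2240, 2200 and 2183 in EtOH and 1786, 1854 and 1786 in OHT at Day 4, without overlap, and a log2 fold change of -0.29 ± 0.05 (SE), adjusted p = 5.60e-08.

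*Iars*, which charges tRNA with isoleucine within the multisynthetase complex, was the one of these 8 genes that was not called at Day 2. At that day its counts were 5728, 5977 and 6249 in EtOH and 5872, 5860 and 6743 in OHT, which overlapped, with a log2 fold change of 0.04 ± 0.06 (SE) and a 95% interval of -0.07 to 0.15. At Day 4 they were 6617, 7165 and 6962 in EtOH and 4814, 4682 and 4822 in OHT, all lower in OHT, with -0.54 ± 0.04 (SE), adjusted p = 1.57e-41. *Iars2* went the other way at Day 4, from 5912, 5942 and 5807 in EtOH to 6332, 6362 and 6347 in OHT, a log2 fold change of 0.11 ± 0.03 (SE) with adjusted p = 0.00632. With effective length offsets the *Iars2* call was lost (0.09, adjusted p = 0.0702).

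*Aars*, for alanine, had 22776, 22301 and 22053 in EtOH and 18206, 18248 and 19387 in OHT at Day 2, and 29458, 28646 and 29457 in EtOH and 20070, 20560 and 20288 in OHT at Day 4. The OHT libraries at Day 4 stood below even the Day 2 EtOH libraries. Log2 fold changes were -0.27 ± 0.04 (SE), adjusted p = 5.47e-10, and -0.53 ± 0.03 (SE), adjusted p = 3.00e-82. The mitochondrial gene *Aars2* had 1968, 2020 and 2010 in EtOH and 1857, 1886 and 1998 in OHT at Day 4, and its groups overlapped, with a log2 fold change of -0.07 ± 0.05 (SE) and a 95% interval of -0.17 to 0.04.

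*Sars*, for serine, was at 10455, 10455 and 10216 in EtOH and 8257, 8211 and 8476 in OHT at Day 2, and at 10272, 9957 and 9908 in EtOH and 7149, 7164 and 7058 in OHT at Day 4. It was lower in every OHT library on both days, with log2 fold changes of -0.32 ± 0.04 (SE), adjusted p = 7.35e-15, and -0.50 ± 0.03 (SE), adjusted p = 7.09e-53. The mitochondrial seryl-tRNA synthetase gene *Sars2* had the most positive Day 4 fold change of the members. Its counts were 808, 889 and 901 in EtOH and 944, 968 and 1015 in OHT at Day 2, and 914, 859.6 and 876 in EtOH and 1152, 1103 and 1135 in OHT at Day 4, higher in every OHT library on both days. It was not called at Day 2 (0.17 ± 0.08 (SE), adjusted p = 0.108) and was called higher at Day 4 (0.35 ± 0.07 (SE), adjusted p = 1.07e-06). By edgeR (0.19, adjusted p = 0.0416), with total counts, with the length trend removed and with all 12 libraries in 1 fit, *Sars2* was called higher at Day 2 too. Serine and isoleucine were the amino acids whose cytosolic and mitochondrial genes were called in opposite directions at Day 4.

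*Wars*, for tryptophan, had 4120, 4195 and 3877 in EtOH and 3618, 3550 and 3709 in OHT at Day 2, and 4705, 4717 and 4732 in EtOH and 3419, 3424 and 3488 in OHT at Day 4. Groups were separate on both days, with log2 fold changes of -0.16 ± 0.05 (SE), adjusted p = 0.00736, and -0.46 ± 0.04 (SE), adjusted p = 8.13e-32. The Day 2 call of *Wars* was lost without Day 2 EtOH replicate 1, Day 2 EtOH replicate 2 or Day 2 OHT replicate 2, with total counts and with a replicate block. *Wars2*, the member with the lowest level, had 249, 284 and 281 in EtOH and 235, 278 and 255 in OHT at Day 4, which overlapped, and a wide 95% interval of -0.34 to 0.16 around -0.09.

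*Gars* encodes the glycyl-tRNA synthetase of both cytosol and mitochondria and has no separate mitochondrial gene. Its counts were 15514, 15268 and 14685 in EtOH and 12179, 12364 and 13108 in OHT at Day 2, and 16456, 16042 and 16114 in EtOH and 11767, 12170 and 11972 in OHT at Day 4. No libraries overlapped, and the log2 fold change was -0.27 ± 0.04 (SE), adjusted p = 4.25e-09, at Day 2 and -0.44 ± 0.03 (SE), adjusted p = 2.60e-49, at Day 4. *Kars*, the other gene that serves both compartments, kept to -0.09 to 0.05 at Day 2 and -0.10 to 0.01 at Day 4 (95% intervals of the log2 fold change) and was called on neither day, although its 3 OHT libraries at Day 4 (18570, 18583 and 18586) were below the 3 in EtOH (19530, 18766 and 18954).

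*Lars* (ENSMUSG00000024493.8), for leucine, is the member on the study's list of genes with PRDM10 binding sites. It lies at chr18:42202298-42262194, minus strand (GRCm38), and a bound site does not show that binding sets its level. Normalised counts were 14534, 14543 and 14322 in EtOH and 11980, 11734 and 12001 in OHT at Day 2, and 16467, 16236 and 16040 in EtOH and 12728, 13062 and 12925 in OHT at Day 4. The fold change was close on both days, -0.28 ± 0.04 (SE), adjusted p = 6.43e-13, and -0.33 ± 0.03 (SE), adjusted p = 4.93e-30, or 82.3% and 79.3% of EtOH. Among the cytosolic members this was the fourth most negative fold change at Day 2 and the tenth at Day 4.

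*Lars2*, the mitochondrial leucyl-tRNA synthetase gene, was the member called in opposite directions on the 2 days. Its counts were 289.5, 367 and 379.9 in EtOH and 401, 396 and 569.7 in OHT at Day 2, and 283, 296 and 380.4 in EtOH and 249, 236 and 243 in OHT at Day 4. The highest value, in Day 2 OHT replicate 3, stood apart from the other libraries of its group, and 1 EtOH library of each day lay away from the other 2. The log2 fold change was 0.40 ± 0.14 (SE), adjusted p = 0.0336, at Day 2 and -0.40 ± 0.13 (SE), adjusted p = 0.00998, at Day 4, with the largest SE of the 36 members on each day. With the effective length of each library as an offset it was called on neither day (0.24 and -0.26), and that length, which depends on which transcripts were found, ran from 2144 to 2907 bases over the 12 libraries. The Day 2 call was lost without Day 2 EtOH replicate 1 (0.28), Day 2 EtOH replicate 2 (0.45) or Day 2 OHT replicate 3 (0.21). The Day 4 call was lost without Day 4 EtOH replicate 3 (-0.26) or Day 4 OHT replicate 2 (-0.38).

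**Figure D3:**
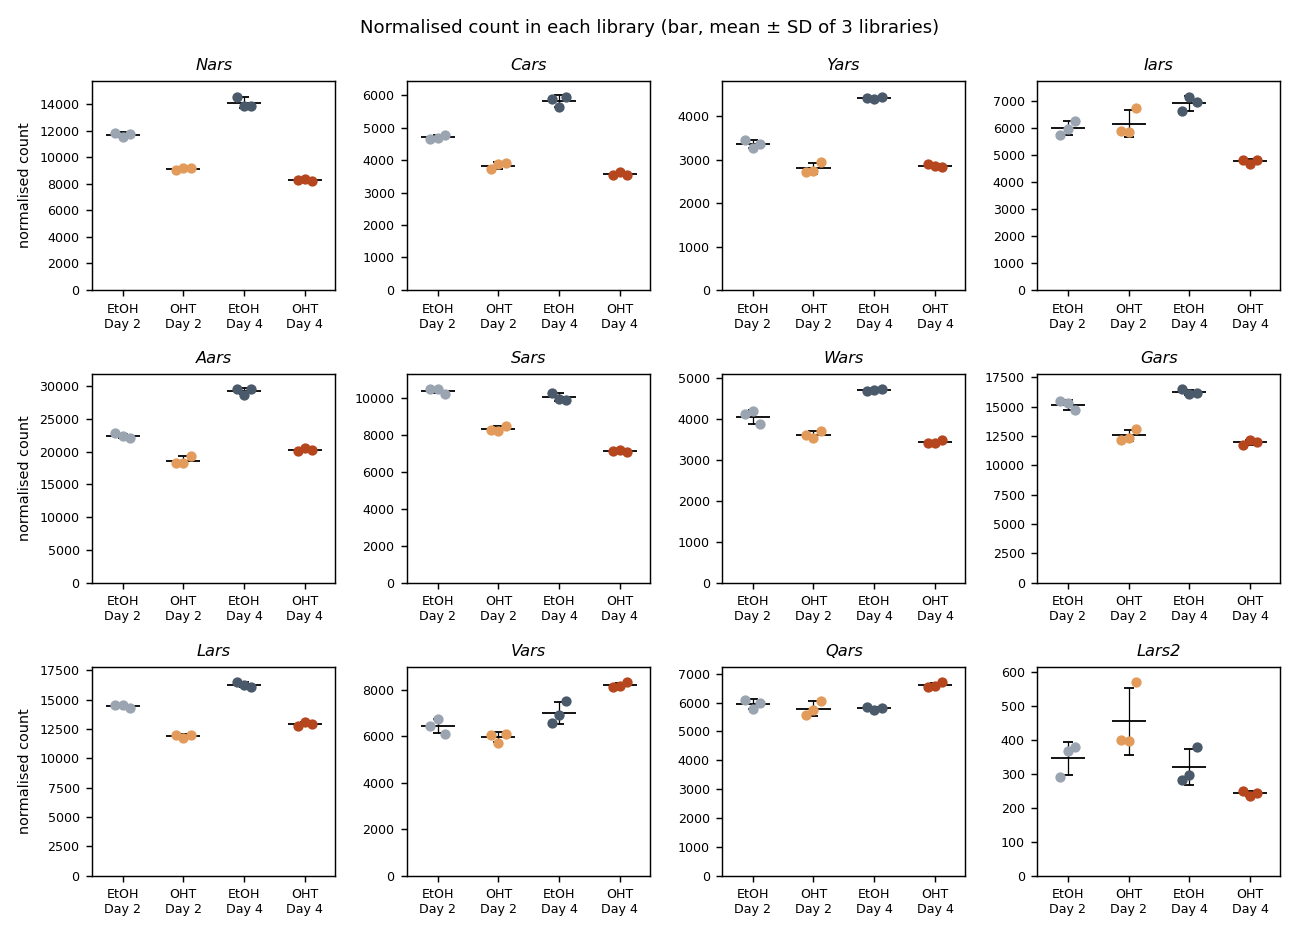
Normalised counts of 12 synthetase genes in each library (points), with the mean ± SD of the 3 libraries of each group, on axes that start at 0. *Nars*, *Cars*, *Yars*, *Aars*, *Sars*, *Wars*, *Gars* and *Lars* are lower in OHT on both days, *Iars* at Day 4, and *Vars* and *Qars* are higher at Day 4, while *Lars2* is spread more widely.

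The remaining cytosolic genes called lower at Day 4 were *Tars* for threonine (-0.43), *Mars* for methionine (-0.29), *Hars* for histidine (-0.27), *Rars* for arginine (-0.16), *Eprs* (-0.13) and the 2 phenylalanyl-tRNA synthetase subunits *Farsa* (-0.12) and *Farsb* (-0.11). Their largest SE was 0.04 on the log2 scale, and in each all OHT libraries were below all EtOH libraries at Day 4. At Day 2 the 2 subunits of the one phenylalanine enzyme were at -0.16 ± 0.05 (SE) and -0.12 ± 0.04 (SE). The *Farsb* call at Day 4 was lost without Day 4 EtOH replicate 1 (-0.07, adjusted p = 0.0884), Day 4 OHT replicate 2 (-0.11, adjusted p = 0.0527) or Day 4 OHT replicate 3 (-0.10, adjusted p = 0.091). *Hars* and *Hars2* are encoded head to head on opposite strands of chromosome 18, where their first bases overlap (*Hars* ends at 36783205 and *Hars2* starts at 36783008 on GRCm38), and whether the counting used strand is not given in the sources used here. *Hars2* was not called on either day (-0.17 ± 0.07 (SE) and -0.01 ± 0.07 (SE)).

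*Vars* and *Qars* rose at Day 4 while most cytosolic enzymes fell. *Vars*, for valine, had 6443, 6729 and 6121 in EtOH and 6075, 5726 and 6106 in OHT at Day 2, and 6560, 6924 and 7528 in EtOH and 8135, 8160 and 8326 in OHT at Day 4. Its libraries labelled OHT were all below EtOH at Day 2, without a call (-0.11 ± 0.05 (SE), adjusted p = 0.113), and all above at Day 4 (0.23 ± 0.04 (SE), adjusted p = 1.84e-06). The mitochondrial gene *Vars2* was higher at Day 4 as well, with 1440, 1404 and 1488 in EtOH and 1627, 1692 and 1675 in OHT and a log2 fold change of 0.20 ± 0.06 (SE), adjusted p = 0.00129. With effective length offsets it was not called (0.12, adjusted p = 0.171). *Qars*, for glutamine, is the cytosolic enzyme without a mitochondrial counterpart in animal cells, where glutaminyl-tRNA is made from glutamyl-tRNA instead. It had 6093, 5762 and 5978 in EtOH and 5557, 5751 and 6071 in OHT at Day 2, which overlapped, and 5849, 5748 and 5809 in EtOH and 6530, 6578 and 6700 in OHT at Day 4, which did not, with 0.18 ± 0.03 (SE), adjusted p = 4.25e-07. *Dars*, for aspartate, was at -0.11 ± 0.04 (SE), adjusted p = 0.052, at Day 2 and 0.09 ± 0.04 (SE), adjusted p = 0.0546, at Day 4, just outside the threshold on both days with opposite signs. It was called lower at Day 2 under 2 alternatives and higher at Day 4 under 6, among them TMM factors (0.10, adjusted p = 0.0367).

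Among the mitochondrial members not yet described, *Mars2*, which charges mitochondrial tRNA with methionine, was lower at Day 2, with counts of 1275, 1176 and 1156 in EtOH and 1054, 1047 and 965 in OHT and a log2 fold change of -0.23 ± 0.07 (SE), adjusted p = 0.0106. That call was lost without Day 2 EtOH replicate 1 or Day 2 OHT replicate 3 (-0.19 each) and with a replicate block. At Day 4 it was at -0.0013 ± 0.05 (SE), adjusted p = 0.99. *Ears2*, *Fars2*, *Pars2*, *Rars2* and *Tars2* were called on neither day, with log2 fold changes between -0.13 (*Rars2*) and 0.10 (*Fars2*) at Day 2 and between -0.04 (*Fars2*) and 0.09 (*Pars2*) at Day 4. Their SEs of 0.04 to 0.09 leave room for small changes. In all, 10 of the 16 mitochondrial and 2 of the 20 cytosolic members were called on neither day.

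A ratio of both enzymes of one amino acid within a library does not depend on how libraries are scaled. It was taken as the log2 ratio of TPM for the 13 amino acids that have one gene for each compartment. TPM also depends on the effective length of each gene in each library, so a ratio can move with that length. Over the 12 libraries that length ran from 2744 to 3978 bases for *Wars2* and from 2144 to 2907 for *Lars2*, but from 3189 to 3193 for *Aars2*. In the 6 EtOH libraries the cytosolic gene was above its counterpart in TPM for every pair but tyrosine, by up to 35.9-fold for *Mars* over *Mars2* on average. The log2 ratio of *Yars* to *Yars2* was -0.11 ± 0.09 (SD, n = 3) in EtOH at Day 2, below 0 in each library, and 0.26 ± 0.06 at Day 4, above 0 in each. At Day 2 the ratio was lower in all 3 OHT libraries than in all 3 EtOH libraries for 7 of the 13 pairs and higher for 0. At Day 4 it was lower for 11 and higher for 0, and only the leucine and valine pairs overlapped. The median difference over the 13 pairs was -0.12 at Day 2 and -0.33 at Day 4, on the log2 scale. The shift was largest at Day 4 for serine, from 3.51 ± 0.02 (SD, n = 3) in EtOH to 2.71 ± 0.07 in OHT. For isoleucine and tyrosine the mean log2 ratio at Day 4 differed in sign between the groups. It went from 0.50 ± 0.14 in EtOH to -0.17 ± 0.06 in OHT for isoleucine, and from 0.26 ± 0.06 to -0.08 ± 0.015 for tyrosine, so that *Iars2* and *Yars2* had the higher TPM in OHT. Pairs share the libraries and are not independent of each other, and no test was run over them.

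Summed over the members, cytosolic TPM was 1943 ± 15.3 (SD, n = 3) in EtOH and 1838 ± 27.1 in OHT at Day 2, and 2312 ± 68.7 in EtOH and 1925 ± 11.1 in OHT at Day 4. Mitochondrial TPM was 223 ± 4.35 and 229.9 ± 4.69 at Day 2, and 247 ± 3.24 and 240.5 ± 6.41 at Day 4. The cytosolic sum was 8.48 to 8.84 times the mitochondrial sum in the EtOH libraries at Day 2 and 7.91 to 8.04 times in OHT, and 9.26 to 9.59 times and 7.84 to 8.21 times at Day 4. These ranges did not overlap on either day. Transcripts of the mitochondrial genome, which the mitochondrial enzymes serve to translate, took 1.21% to 1.3% of the counts in EtOH and 1.0% to 1.06% in OHT at Day 2, and 1.3% to 1.36% in EtOH and 0.771% to 0.827% in OHT at Day 4, and the part of this share in the result was not tested.

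**Figure D4:**
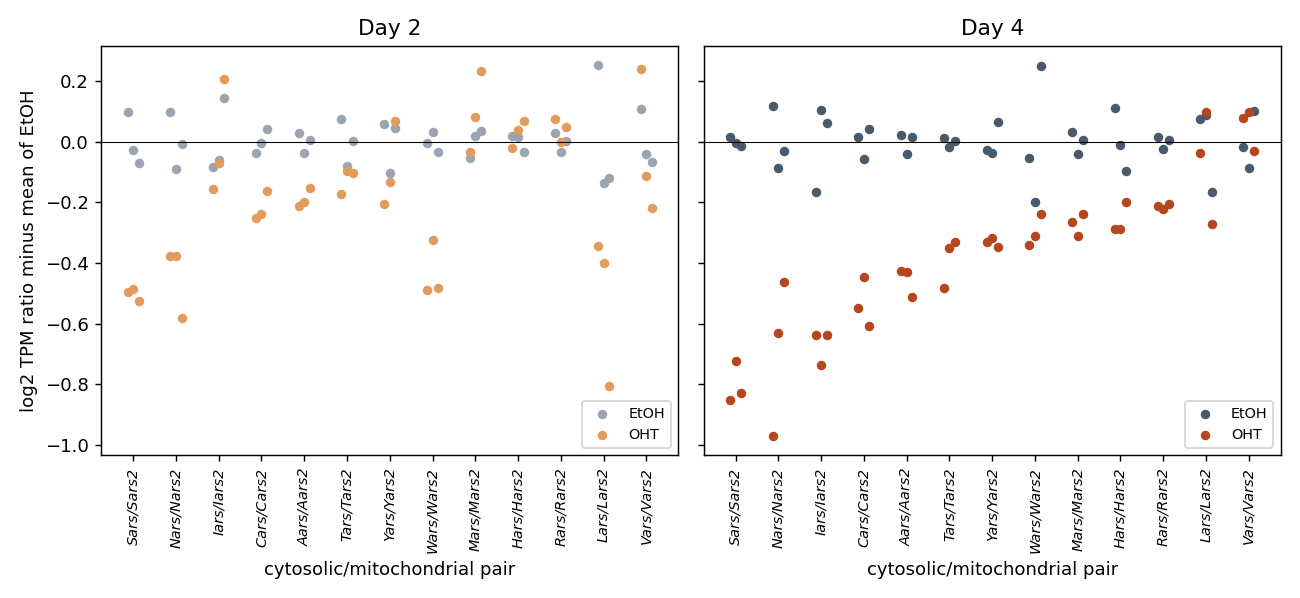
Log2 ratio of cytosolic to mitochondrial TPM for 13 amino acids in each library, minus the mean of the 3 EtOH libraries of the day (grey, EtOH; orange and red, OHT). At Day 4 the OHT libraries lie below the EtOH libraries for 11 pairs, with overlap for *Lars*/*Lars2* and *Vars*/*Vars2*.

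A list of 12 cytosolic synthetases known as ATF4 targets held *Aars*, *Cars*, *Eprs*, *Gars*, *Iars*, *Lars*, *Mars*, *Nars*, *Sars*, *Tars*, *Wars* and *Yars*. It was written from general knowledge, but with earlier results of these data known. It had a median log2 fold change of -0.26 at Day 2, with 11 called lower and 0 higher, and of -0.48 at Day 4, with 12 called lower and 0 higher (0 higher also at an unadjusted DESeq2 p below 0.05 and by edgeR on both days). The shares over all genes were 10.6% lower and 9.17% higher at Day 2 and 21.7% and 23.5% at Day 4, here and for the divisions that follow. The 8 cytosolic members outside it had medians of -0.11 and -0.08, with 3 called lower at Day 2 and 4 lower and 2 higher (25.0%, near the share over all genes) at Day 4. Divided another way, the 8 enzymes of the multisynthetase complex had medians of -0.10 and -0.14, with 3 and 5 called lower and 1 (*Qars*) higher at Day 4, and the 12 cytosolic enzymes outside the complex had -0.24 and -0.45, with 11 called lower on each day and 1 (*Vars*) higher at Day 4. These divisions overlap, since 4 of the 12 genes of the ATF4 list (*Eprs*, *Iars*, *Lars* and *Mars*) belong to the complex. By the fold of the catalytic domain, 7 of 9 class I and 8 of 10 class II cytosolic enzymes were called lower at Day 4, and 2 class I and 0 class II enzymes higher (1 class II enzyme at an unadjusted DESeq2 p below 0.05 and 0 by edgeR), with medians of -0.33 and -0.35 (*Eprs* has a domain of each class and was left out).

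Genes around the synthetases were counted from lists of the same kind. Of the scaffold genes of the complex, *Aimp1* was lower at Day 2 (-0.17 ± 0.04 (SE), adjusted p = 0.00137) and not called at Day 4, *Aimp2* was lower at Day 4 (-0.34 ± 0.05 (SE), adjusted p = 3.22e-10), and *Eef1e1* was lower on both days (-0.19 ± 0.05 (SE) and -0.17 ± 0.04 (SE)). Of 14 genes with related or accessory roles in charging, such as the amidotransferase subunits and peptidyl-tRNA hydrolases, 2 were called lower at Day 2 (*Pstk* and *Dtd2*, named after their values were seen), and at Day 4 1 was lower (*Ptrh2*, -0.17 ± 0.05 (SE)) and 1 higher (*Aarsd1*, 0.12 ± 0.04 (SE)) of the 13 above the minimum mean. These shares of 14.3% lower at Day 2 and 7.69% each way at Day 4 compare with 10.6% lower at Day 2 and 21.7% lower and 23.5% higher at Day 4 over all genes, and edgeR called 3 lower at Day 2 and 5 lower at Day 4. Of 15 genes of tRNA processing and export, 5 (33.3%) were called lower and 0 higher at Day 2 (0 higher also at an unadjusted DESeq2 p below 0.05 and by edgeR), and 7 (46.7%) lower and 4 (26.7%, near the share over all genes) higher at Day 4 (higher were *Hsd17b10*, *Trit1*, *Tsen34* and *Tsen54*), where those not given values below are named after their values were seen. Among them *Xpot*, the exportin that carries tRNA out of the nucleus, was lower at Day 4 (-0.38 ± 0.03 (SE)), as was the RNA kinase gene *Clp1* (-0.32 ± 0.06 (SE)), while *Tsen34*, a subunit of the tRNA splicing endonuclease, was higher (0.30 ± 0.05 (SE)).

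*Atf4* itself had normalised counts of 7136, 7087 and 7263 in EtOH and 6770, 6039 and 6085 in OHT at Day 2, and 10461, 10356 and 10277 in EtOH and 6885, 6850 and 6651 in OHT at Day 4. It was lower in every OHT library on both days, with log2 fold changes of -0.18 ± 0.05 (SE), adjusted p = 0.00286, and -0.61 ± 0.03 (SE), adjusted p = 1.69e-79. Of the 4 genes listed around it, *Atf4* and *Cebpg* (-0.24 ± 0.06 (SE), named after its value was seen) were called lower at Day 2. *Gcn1l1*, which encodes a partner of the amino acid-sensing kinase GCN2, and *Eif2ak4*, which encodes that kinase, were higher at Day 4 (0.27 ± 0.04 (SE) and 0.15 ± 0.05 (SE)). Of 24 other ATF4 target genes, 22 passed the minimum mean. Of these, 15 were called lower at Day 2 and 0 higher (0 also at an unadjusted DESeq2 p below 0.05 and 0 by edgeR), and 20 lower and 1 higher at Day 4 (*Ddit3*, named after its value was seen), with medians of -0.30 and -0.76. Those called lower were 68.2% and 90.9% of the 22, against 10.6% and 21.7% of all genes, and those called higher 0% and 4.54%, against 9.17% and 23.5%. mRNA of *Atf4* is not a measure of its protein, which is mostly set by translation. The part of ATF4 in the lower synthetase transcripts was not tested.

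The OHT effects of the 2 days were compared through a treatment-by-day interaction term in 1 DESeq2 fit of all 12 libraries. The change was more negative at Day 4 for 10 cytosolic members (*Iars*, *Cars*, *Nars*, *Yars*, *Wars*, *Aars*, *Tars*, *Sars*, *Gars* and *Mars*) and more positive for 3 (*Vars*, *Qars* and *Dars*), against 13.6% and 18.7% of 11616 genes. Among mitochondrial members it was more negative for *Lars2* and more positive for *Mars2*, *Rars2* and *Iars2*, of which *Iars2* alone was itself called higher at Day 4. These were 6.25% and 18.8% of the 16 mitochondrial members, the second near the share over all genes. For *Lars* the difference was -0.05 ± 0.03 (SE), adjusted p = 0.31, with a 95% interval of -0.12 to 0.02. All 10 cytosolic members with a more negative change at Day 4 were on the ATF4 list, and the 2 others of that list were *Lars* and *Eprs* (0.04 ± 0.04 (SE)).

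The EtOH libraries differed between the days as well. From Day 2 to Day 4 in EtOH, 13 cytosolic members were called higher and 1 (*Dars*, -0.13 ± 0.04 (SE)) lower, where 20.6% of 11572 genes were called higher and 20.5% lower. The rise was largest for *Yars* (0.39 ± 0.04 (SE)), *Aars* (0.38 ± 0.03 (SE)) and *Cars* (0.31 ± 0.04 (SE)), and *Atf4* was higher by 0.53 ± 0.03 (SE). Of the mitochondrial members 3 were higher, with *Mars2* (0.58 ± 0.06 (SE)) ahead of *Wars2* (0.33 ± 0.14 (SE)) and *Tars2* (0.14 ± 0.04 (SE)), and *Nars2* (-0.24 ± 0.09 (SE)) was lower. This comparison and the Day 4 treatment effect share the 3 Day 4 EtOH libraries, so a high value there would raise the first and lower the second. For *Nars*, *Cars*, *Yars*, *Iars*, *Aars*, *Sars*, *Wars* and *Gars* the mean at Day 4 in OHT was also below the mean at Day 2 in EtOH (8284 and 11690 for *Nars*). That comparison mixes treatment and day. Within OHT the mean was higher at Day 4 than at Day 2 for *Aars* (20306 and 18614) and *Yars* (2866 and 2800). It was lower for *Nars*, *Cars*, *Iars*, *Sars*, *Wars* and *Gars*, and the difference between the days in OHT was not tested.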

How the data were processed

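Total RNA from mESC cultures was sequenced as stranded, paired-end libraries after depletion of rRNA. Per the labels and the study's methods, the authors mapped reads with STAR (version 2.6.0c) to GRCm38.p6 and quantified GENCODE genes with RSEM, which gave the deposited expected counts and TPM of each library. An expected count is an estimate, since pairs that fit several genes are shared. The deposited tables of log2 fold changes and p-values from DESeq2 (version 1.22.2) hold the authors' own comparisons, and only their gene symbols were read. Samples were grouped by title, 3 libraries in each of 4 groups.

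Rounded expected counts of all genes entered the Wald test of DESeq2 (version 1.42.0, run in R 4.3.3), per day, with median-of-ratios size factors. The interaction used all 12 libraries. A gene was called when its adjusted p was under 0.05 and its normalised counts averaged over 100. Printed normalised counts used size factors over all 12 libraries, and fold changes those of their own fit. At 35017667 to 41409992 expected counts a library, the spread between libraries is the measure of error. Without molecular identifiers, read pairs cannot be taken as independent molecules. The statistics were tested on simulated data, and libraries of one group all differed pairwise beyond sampling noise.

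Values in every library are given, by rule, for the 8 most negative and 5 most positive called Day 4 fold changes, for members called in opposite directions, for *Lars*, and for the other enzyme of the same amino acid. The members and lists were chosen with earlier results of these data known. Positions are those of GENCODE vM21, and promoters those of RefSeq, where 9 members had no entry that matched. Alternatives were TMM factors, the quasi-likelihood test of edgeR (version 4.0.16), total counts, effective length offsets, removal of a loess trend on gene length (span 0.3, 0.5 added before log2), a replicate block, both of the last, all 12 libraries in 1 fit, no minimum mean, and each library left out. Some results on single genes and windows are not reported here.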

Additional observations from a re-analysis of the deposited data

Results flagged for a closer look

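The effect of OHT differed between the days for 17 of the 36 members by the interaction of treatment and day (DESeq2, 12 libraries, adjusted over all genes). It was more negative at Day 4 for 11 (30.6%), against 13.6% of 11616 genes. It was more positive for 6 (16.7%), near the 18.7% over all genes. The values below are the log2 fold change at Day 4 minus that at Day 2. The effect was more negative at Day 4 for *Lars2* (-0.80 ± 0.21 (SE), adjusted p = 0.00152), *Iars* (-0.58 ± 0.07 (SE), adjusted p = 7.22e-13), *Cars* (-0.41 ± 0.05 (SE), adjusted p = 5.69e-14) and *Nars* (-0.41 ± 0.04 (SE), adjusted p = 1.64e-21). Smaller differences in the same direction were found for *Yars* (-0.36 ± 0.06 (SE), adjusted p = 2.81e-09), *Wars* (-0.29 ± 0.05 (SE), adjusted p = 8.72e-07), *Aars* (-0.26 ± 0.04 (SE), adjusted p = 2.49e-08), *Tars* (-0.20 ± 0.04 (SE), adjusted p = 1.87e-05), *Sars* (-0.18 ± 0.04 (SE), adjusted p = 9.21e-05), *Gars* (-0.16 ± 0.05 (SE), adjusted p = 0.00353) and *Mars* (-0.12 ± 0.04 (SE), adjusted p = 0.0321). It was more positive at Day 4 for *Vars* (0.34 ± 0.07 (SE), adjusted p = 1.56e-05), *Mars2* (0.24 ± 0.08 (SE), adjusted p = 0.0123), *Qars* (0.22 ± 0.05 (SE), adjusted p = 0.000173), *Rars2* (0.21 ± 0.07 (SE), adjusted p = 0.00726), *Dars* (0.20 ± 0.06 (SE), adjusted p = 0.00509) and *Iars2* (0.12 ± 0.04 (SE), adjusted p = 0.0117). *Lars2* was the member whose libraries labelled OHT all lay above those labelled EtOH at Day 2 and all below them at Day 4, each time with a call. With effective length offsets its interaction was not called.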

How the results depend on the processing

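Of the 23 members called at Day 4, 19 kept their call and direction under all 15 alternatives, and of the 16 called at Day 2, 9 did, with no called member changing sign. The exceptions at Day 4 were *Farsb* and *Lars2*, described above, and *Iars2* (0.09, adjusted p = 0.0702) and *Vars2* (0.12, adjusted p = 0.171) with effective length offsets. At Day 2 they were *Hars*, *Farsb*, *Wars*, *Farsa*, *Mars*, *Mars2* and *Lars2*. The alternative without a minimum mean reused the main fit, so no call could be lost under it. The count of cytosolic members called lower at Day 4 was 15 to 16 with a library left out and 16 with the replicate block. At Day 2 it was 10 to 14 with a library left out (*Farsa*, *Farsb*, *Hars* and *Wars* were lost without EtOH replicate 1 or 2, *Hars* without EtOH replicate 3, *Hars* without OHT replicate 1, *Farsb*, *Hars* and *Wars* without OHT replicate 2, and *Farsb* without OHT replicate 3), 11 with the replicate block and 9 with the replicate block and the length trend removed. The Day 2 *Mars2* call was lost without EtOH replicate 1 (-0.19) or OHT replicate 3 (-0.19).

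The median of the cytosolic members at Day 2 moved to -0.13 with total counts, -0.14 with the length trend removed and -0.14 with the replicate block as well, and at Day 4 to -0.30 with effective length offsets. That of the mitochondrial members at Day 2 moved to -0.023 with edgeR and to 0.0006 with total counts, and lay between -0.055 and -0.021 with a library left out. Mitochondrial members called at Day 2 were 2 lower with edgeR, and 4 lower and 2 higher with all 12 libraries in 1 fit. They were 2 higher with total counts and 2 with the length trend removed, 0 higher with effective length offsets, 0 lower and 0 higher with the replicate block, and 0 higher with the replicate block and the length trend removed. With a library left out they were 0 to 2 lower and 0 to 1 higher. At Day 4, 1 was lower with effective length offsets, 1 with the replicate block, 1 with the replicate block and the length trend removed, and 1 to 2 with a library left out. In the interaction, 6 mitochondrial members were more positive with edgeR, 0 more negative with effective length offsets, 2 more negative with the length trend removed, and 1 to 3 more positive with a library left out. From Day 2 to Day 4 in EtOH, mitochondrial members called lower were 2 with edgeR, 0 with the replicate block and 0 with the replicate block and the length trend removed, and with a library left out 0 to 1 mitochondrial members were lower, 1 to 3 higher, and 0 to 1 cytosolic members lower. For these values the cause was not tested.

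Replicate numbers did not pair the samples. The correlation of deviations from the group means between same-numbered EtOH and OHT libraries, over 11616 genes, was -0.03 to 0.11 at Day 2 and -0.25 to 0.16 at Day 4, and not every sample correlated best with its own number. The least precise log2 fold changes were those of *Lars2* (SE 0.14 and 0.13 at Day 2 and Day 4) and *Wars2* (0.14 and 0.13). Small changes in these 2 members could be missed. They were the lowest in mean TPM, but *Mars2*, the next lowest, had SEs of 0.07 and 0.05. The parts of depth and of spread between libraries in these SEs were not tested.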
